A study of Mus musculus with 12 samples.

Results

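Expression of 10 chemokine genes was examined in cultured mouse keratinocytes, the epithelial cells that make up most of the epidermis. The members were Cxcl1, Cxcl2, Cxcl3, Cxcl5, Ppbp, Cxcl10, Cxcl16, Ccl2, Ccl7 and Ccl20, a list of chemokines that keratinocytes can make. The list was chosen with earlier results of these data known, and the members were found on the array by gene symbol. Each had 1 transcript cluster (the probe set of a gene) among the 35511 on the array, and 10 of 10 passed the filter on low values that left 15868 genes for testing. To pass, a value had to exceed the 30th percentile of its array on 3 or more arrays.

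Total RNA of 12 samples of primary keratinocytes of the FVB/N mouse strain had been hybridised to 1 microarray each, in 4 groups of 3. The first group held cells of MT-HGF mice that were mock transduced, kept in 8% serum and treated for 24 h with AG1478, a small molecule that blocks the kinase of EGFR, the epidermal growth factor receptor. The second held MT-HGF control cells. MT-HGF mice carry a transgene in which a metallothionein promoter drives HGF (hepatocyte growth factor), which binds and activates MET. The third held wild-type cells transduced with v-rasHa, an oncogene of viral origin related to Hras (RAS cells), and the last held wild-type control cells. The labels of the last 3 groups share regular medium and a note of a transduction of 3 days, also for the controls. As to mock transduction of these 2 control groups, nothing is stated, so the RAS oncogene and the transduction step cannot be told apart in RAS cells. The AG1478-treated arrays came from another submission, with other wording for growth and extraction and with no vehicle-treated array used here, so that the compound and the handling of that submission cannot be told apart in any comparison of this group. The labels call the 9 arrays outside the AG1478 group biological replicates, without saying whether these are separate animals or cultures, and number those of the AG1478 group only as replicates. The p-values therefore reflect how these arrays vary, which for the AG1478 group can be technical.

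Chemokines are small secreted proteins that bind G protein-coupled receptors and direct the movement of white blood cells. They are grouped by the spacing of their first cysteines. CXC chemokines with a Glu-Leu-Arg motif, which include the products of Cxcl1, Cxcl2, Cxcl3, Cxcl5 and Ppbp, bind the receptor CXCR2 and draw neutrophils. Cxcl10 encodes a ligand of CXCR3 that is induced by interferon and draws T cells, and Cxcl16 encodes a membrane-bound ligand of CXCR6 that proteases can release. Ccl2 and Ccl7 encode ligands of CCR2 that draw monocytes, and Ccl20 encodes the ligand of CCR6, a receptor on Langerhans cell precursors and some T cells. Keratinocytes make many of these proteins during wounding and inflammation, and transcription factors of the NF-kappaB family are well known activators of their genes.

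The 5 neutrophil chemokine genes lie in 1 cluster on mouse chromosome 5, and the stretches upstream of the gene starts are shown for the 4 of them in the promoter table and, for contrast, for Cxcl10. RefSeq windows (build GRCm38.p6, the 250 bases before the annotated start, 5′ to 3′ on the gene's strand) were matched for 6 of the 10 members, and Cxcl5 was not among these. Capitals mark motif matches, with the NF-kappaB consensus in Cxcl1, Cxcl2, Cxcl3 and Cxcl10 and the AP-1-type motif TGANTCA (N, any base) in Ppbp and Cxcl10. The interferon-type element (GAAA, any 2 bases, GAAA) is marked in Cxcl10. TGANTCA is looser than the AP-1 consensus, which has C or G in the middle. TGAGTCA in Cxcl10 fits that consensus, and TGAATCA in Ppbp does not. The motifs were chosen with the expression values known. Windows are those of Cxcl1 (chr5:90890995-90891244 on the plus strand), Cxcl2 (chr5:90903649-90903898 on the plus strand), Cxcl3 (chr5:90785851-90786100 on the plus strand), Ppbp (chr5:90768268-90768517 on the plus strand) and Cxcl10 (chr5:92348890-92349139 on the minus strand).
Cxcl1: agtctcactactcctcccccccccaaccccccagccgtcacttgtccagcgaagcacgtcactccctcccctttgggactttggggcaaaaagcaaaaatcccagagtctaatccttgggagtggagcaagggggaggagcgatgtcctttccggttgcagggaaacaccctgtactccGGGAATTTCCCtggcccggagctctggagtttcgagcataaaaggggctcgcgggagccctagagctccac
Cxcl2: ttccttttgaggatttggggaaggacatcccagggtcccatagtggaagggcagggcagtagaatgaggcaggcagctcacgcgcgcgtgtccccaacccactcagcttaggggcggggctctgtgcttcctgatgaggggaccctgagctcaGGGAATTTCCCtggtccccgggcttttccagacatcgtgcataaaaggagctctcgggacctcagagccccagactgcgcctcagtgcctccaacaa
Cxcl3: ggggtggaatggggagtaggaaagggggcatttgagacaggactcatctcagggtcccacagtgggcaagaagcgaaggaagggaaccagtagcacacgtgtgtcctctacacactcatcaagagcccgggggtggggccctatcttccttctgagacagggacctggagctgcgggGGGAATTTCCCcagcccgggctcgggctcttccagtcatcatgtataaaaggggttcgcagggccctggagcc
Ppbp: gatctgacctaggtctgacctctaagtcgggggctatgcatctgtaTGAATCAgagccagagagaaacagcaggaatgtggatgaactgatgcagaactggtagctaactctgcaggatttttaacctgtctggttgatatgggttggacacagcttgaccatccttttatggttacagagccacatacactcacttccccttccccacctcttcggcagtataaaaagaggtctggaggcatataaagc
Cxcl10: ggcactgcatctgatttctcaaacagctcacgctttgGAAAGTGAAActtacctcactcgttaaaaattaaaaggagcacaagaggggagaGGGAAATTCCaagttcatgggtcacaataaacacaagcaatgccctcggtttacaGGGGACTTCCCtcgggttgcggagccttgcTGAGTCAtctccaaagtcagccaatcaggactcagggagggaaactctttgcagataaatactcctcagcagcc

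The windows of Cxcl1, Cxcl2 and Cxcl3 share the run GGGAATTTCCC of 11 bases. It begins 71 bases before the start in Cxcl1, 97 bases before it in Cxcl2 and 73 bases before it in Cxcl3. This run matches the NF-kappaB consensus on both strands, with overlapping matches. It stood in 14 of 32851 promoter windows of the same length (0.0426%), among them the 3 windows that defined it. The NF-kappaB consensus, searched on both strands, matched 5 of the 6 member windows, Ccl20 included, and 7.25% of all windows. In Cxcl10 the matches began 159, 104 and 103 bases before the start, the last 2 overlapping. The AP-1-type motif TGANTCA matched in 2 of 6 member windows, Ppbp and Cxcl10, and in 6.75% of all windows. The interferon-type element matched in 1 of 6, Cxcl10, and in 2.98% of all windows. A match describes the letters of a window and does not show that a factor binds there.

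**Figure D1:**
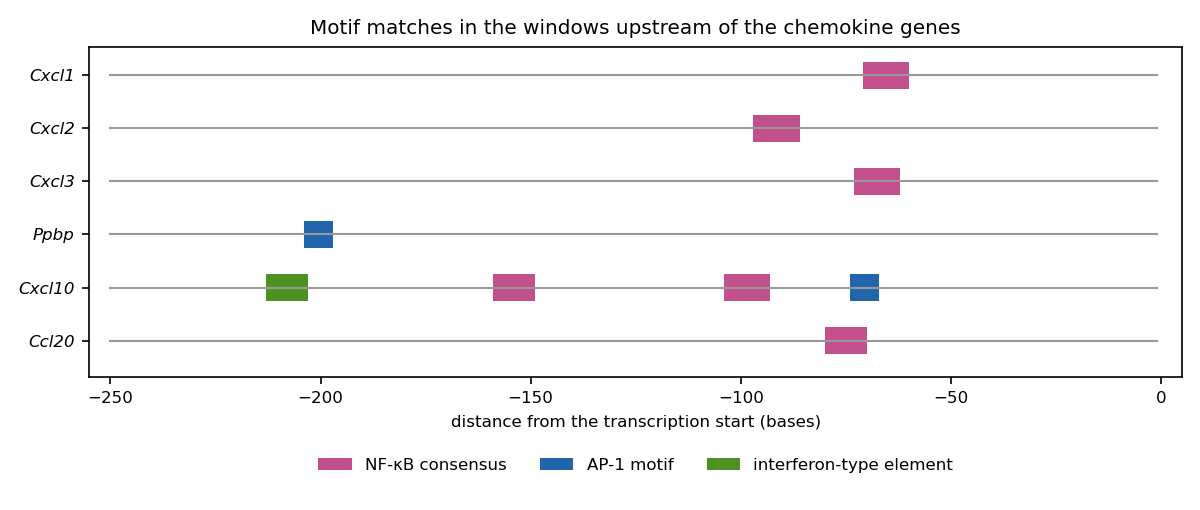
Position of motif matches in the upstream windows of 6 chemokine genes (horizontal axis, distance from the transcription start in bases; 1 line per gene; coloured boxes, matches on either strand). NF-kappaB matches stand in 5 of the 6 windows and begin 71, 97 and 73 bases before the start in Cxcl1, Cxcl2 and Cxcl3, while Ppbp holds only an AP-1 match among the 3 motifs searched.

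Values are the log2 expression values that the authors deposited, and 1 log2 unit is a doubling. Array medians lay between 6.77 and 6.84, and correlations between arrays of a group between 0.993 and 0.997. The background of each array was the 95th percentile of 1228 transcript clusters of chemosensory receptors, a class taken as mostly silent in these cells, and lay between 6.09 and 6.33. The transgene check Hgf averaged 10.74 in AG1478-treated MT-HGF cells and 10.68 in MT-HGF cells, against 5.16 in RAS cells and 4.91 in wild-type cells. The basal keratin genes Krt5 and Krt14, defining markers of the labelled cell type, had group means of 12.9 to 13.5, and Ptprc, the pan-leukocyte marker CD45, was not above background on any of the 12 arrays. In bulk samples, fewer cells of a type and less RNA per cell cannot be told apart.

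All 5 neutrophil chemokine genes were higher in RAS cells, in MT-HGF cells and in AG1478-treated MT-HGF cells than in wild-type cells. In none of the 5 did a wild-type array overlap an array of the other groups. Such separation from wild type also occurred without a call, for Cxcl10 and Ccl20 in RAS cells, and no share over all genes is given here. Ppbp stood highest in RAS cells, while Cxcl1, Cxcl2, Cxcl3 and Cxcl5 stood highest in MT-HGF cells. After AG1478 all 5 were lower than in MT-HGF cells but still above wild type. Differences are tested with limma's moderated fit over all 12 arrays, with p-values adjusted over the 15868 genes and a call at an adjusted p under 0.05, and errors of differences are standard errors with 3 arrays per group. Of the 10 members, 6 were called higher and 1 lower in RAS cells than in wild-type cells, where 12.6% and 19.9% of all genes were called higher and lower. The median difference of the 10 was 0.49 log2 units, against -0.02 over all genes. In MT-HGF cells 7 were higher and 1 lower than in wild type (17.1% and 23.9% of all genes), with a median of 0.84 against -0.03. Ppbp and Cxcl10 were the 2 members lower in MT-HGF than in RAS cells, and 5 members were higher (12.6% of all genes lower, 13.4% higher). The median there was 0.11, against -0.02 over all genes.

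AG1478-treated MT-HGF cells had 1 member higher and 5 lower than MT-HGF cells, where 6.57% of all genes were called higher and 9.91% lower, and the median was -0.30 against 0.02. The 5 that fell were the neutrophil chemokine genes, by 0.50 to 0.73 log2 units. Against wild type the treated cells had 8 members higher and 1 lower (16.8% and 26.2% of all genes), with a median of 0.67 against 0.00. Against RAS cells they had 2 higher and 1 lower (16.3% and 20.4% of all genes), with a median of -0.03 against 0.02. The comparisons of AG1478-treated with untreated MT-HGF cells and of MT-HGF with wild-type cells share the MT-HGF arrays, so their values are given side by side only. The differentiation keratin genes Krt1 and Krt10 moved with the same groups, at -3.96 and -3.31 log2 units in MT-HGF cells against wild type and at 4.78 and 2.92 after AG1478, and their part in the chemokine values was not tested.

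**Figure D2:**
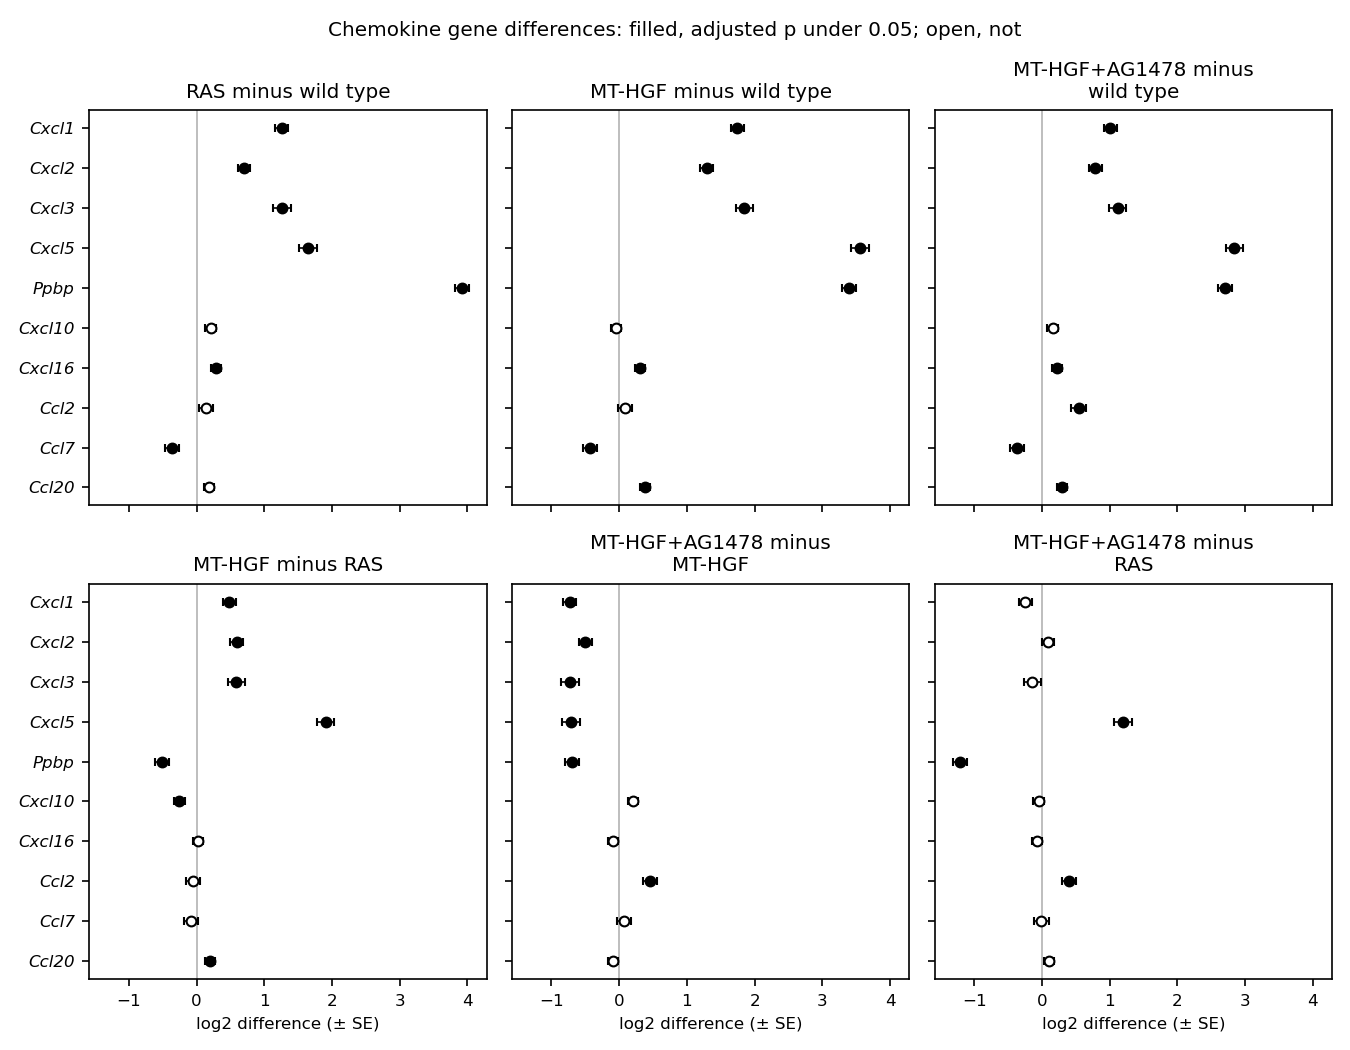
Log2 difference (horizontal axis, ± SE of limma's fit over 12 arrays) of each chemokine gene in the 6 comparisons, with filled circles at an adjusted p under 0.05. The 5 neutrophil chemokine genes lie right of 0 in the 3 comparisons with wild type and between -0.73 and -0.50 after AG1478, and differences that involve Cxcl5 or Cxcl2 in wild-type cells are taken from values below background.

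Ppbp encodes the precursor of CXCL7, also called pro-platelet basic protein, and had the largest fitted difference of the members in RAS cells. Its log2 values were 10.74, 10.52 and 10.69 in AG1478-treated MT-HGF cells, 11.12, 11.39 and 11.53 in MT-HGF cells, 11.97, 11.76 and 11.85 in RAS cells, and 7.81, 7.90 and 8.13 in wild-type cells. No 2 groups overlapped. Against wild type, Ppbp was 15.1-fold higher in RAS cells (3.92 ± 0.10 log2 units, adjusted p = 9.64e-14), 10.6-fold higher in MT-HGF cells (3.40 ± 0.10, adjusted p = 2.26e-13) and 6.52-fold higher in AG1478-treated MT-HGF cells (2.70 ± 0.10, adjusted p = 4.32e-12). It was lower in MT-HGF cells than in RAS cells by 1.43-fold (-0.51 ± 0.10 log2 units, adjusted p = 0.0015). It fell by 0.70 ± 0.10 log2 units after AG1478 (1.62-fold, adjusted p = 0.000145). Every step of the order RAS, MT-HGF, AG1478-treated MT-HGF, wild type was called. Platelets are the best known source of the Ppbp product, and the platelet gene Pf4, its neighbour in the cluster, lay between 5.54 and 6.30 on the 12 arrays, with 1 of the 12 above background. Of 3 platelet markers tested with limma, Pf4 among them, 0 were higher in AG1478-treated MT-HGF, MT-HGF or RAS cells than in wild-type cells. This held at an adjusted p and at an unadjusted p under 0.05. In MT-HGF and in AG1478-treated MT-HGF cells 1 of the 3, Pf4, was called lower than in wild-type cells, and in RAS cells 0. The part of platelets in the Ppbp values was not tested.

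Cxcl5 encodes a neutrophil attractant made mainly by epithelial cells, named LIX in the mouse. Its log2 values were 8.44, 8.23 and 8.13 in AG1478-treated MT-HGF cells, 8.85, 8.99 and 9.10 in MT-HGF cells, 7.27, 6.67 and 7.27 in RAS cells, and 5.48, 5.39 and 5.41 in wild-type cells. The groups did not overlap, and all 3 wild-type arrays lay below background. Folds against wild type are therefore bounds, taken against the mean of the background of the 3 wild-type arrays. Cxcl5 was at least 1.79-fold higher in RAS cells (adjusted p = 3.08e-08), at least 6.72-fold higher in MT-HGF cells (adjusted p = 1.58e-12) and at least 4.11-fold higher in AG1478-treated MT-HGF cells (adjusted p = 3.02e-11). With the 99th percentile of the same class as background, these bounds became 0.27, 2.18 and 1.47 log2 units, against 0.84, 2.75 and 2.04. MT-HGF cells held 3.75-fold more Cxcl5 signal than RAS cells (1.91 ± 0.13 log2 units, adjusted p = 2.55e-08), opposite in sign to Ppbp. AG1478-treated MT-HGF cells had 1.63-fold less than MT-HGF cells (-0.71 ± 0.13, adjusted p = 0.00102) and 2.30-fold more than RAS cells (1.20 ± 0.13, adjusted p = 2.12e-06).

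Cxcl1, the mouse gene known as KC, was above wild type in every array of the other groups. Its log2 values were 9.06, 8.97 and 9.13 in AG1478-treated MT-HGF cells, 9.75, 9.84 and 9.76 in MT-HGF cells, 9.32, 9.29 and 9.28 in RAS cells, and 8.33, 7.90 and 7.89 in wild-type cells. It was 2.39-fold higher in RAS cells (1.26 ± 0.095 log2 units, adjusted p = 1.78e-08), 3.35-fold higher in MT-HGF cells (1.74 ± 0.095, adjusted p = 2.08e-10) and 2.02-fold higher in AG1478-treated MT-HGF cells (1.01 ± 0.095, adjusted p = 2.13e-07) than in wild-type cells. MT-HGF cells stood above RAS cells by 0.48 ± 0.095 log2 units (adjusted p = 0.00119), and after AG1478 Cxcl1 was 1.66-fold lower than in MT-HGF cells (-0.73 ± 0.095, adjusted p = 3.88e-05). AG1478-treated MT-HGF cells and RAS cells did not overlap but the difference was not called (-0.24 ± 0.095 log2 units, adjusted p = 0.0542). It was called under 4 alternatives, at adjusted p from 0.00397 to 0.0471.

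Cxcl3, whose product binds the same receptor, followed the order of Cxcl1. Its log2 values were 7.82, 7.58 and 7.51 in AG1478-treated MT-HGF cells, 8.17, 8.34 and 8.58 in MT-HGF cells, 7.86, 7.46 and 8.00 in RAS cells, and 6.49, 6.66 and 6.41 in wild-type cells, which lay just above background. Compared with wild type it was 2.39-fold higher in RAS cells (1.26 ± 0.13 log2 units, adjusted p = 8.61e-07), 3.60-fold higher in MT-HGF cells (1.85 ± 0.13, adjusted p = 4.84e-09) and 2.17-fold higher in AG1478-treated MT-HGF cells (1.12 ± 0.13, adjusted p = 2.54e-06). MT-HGF cells exceeded RAS cells (0.59 ± 0.13, adjusted p = 0.00293), and after AG1478 Cxcl3 fell by 0.73 ± 0.13 log2 units (adjusted p = 0.000811). AG1478-treated MT-HGF and RAS arrays overlapped (-0.14 ± 0.13, adjusted p = 0.448). With the stricter background, the wild-type level of Cxcl3 became a bound, and the differences from wild type were at least 0.97, 1.56 and 0.84 log2 units in RAS, MT-HGF and AG1478-treated MT-HGF cells.

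Cxcl2, the mouse MIP-2 gene, differed in the same comparisons, but its differences rest on values near background. It read 6.49, 6.20 and 6.26 in AG1478-treated MT-HGF cells, with 1 of 3 arrays above background, and 6.73, 6.82 and 6.90 in MT-HGF cells, all above it. It read 6.37, 6.08 and 6.22 in RAS cells, with 2 of 3 above, and 5.69, 5.45 and 5.44 in wild-type cells, with 0 of 3. It was at least 1.50-fold higher in MT-HGF cells than in wild-type cells (adjusted p = 8.91e-09). It was also called higher in RAS cells (adjusted p = 2.02e-05), with no size given since their mean did not exceed the background, and in AG1478-treated MT-HGF cells (at least 1.06-fold, adjusted p = 3.74e-06). MT-HGF cells exceeded RAS cells by 0.59 ± 0.095 log2 units (adjusted p = 0.000218), and after AG1478 it fell by 0.50 ± 0.095 (adjusted p = 0.00135). With the 99th percentile as background, the difference of AG1478-treated from untreated MT-HGF cells had a bound of -0.0024 log2 units and that of MT-HGF from RAS cells a bound of 0.0082, and 2 of the 3 MT-HGF arrays and no other array lay above it.

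**Figure D3:**
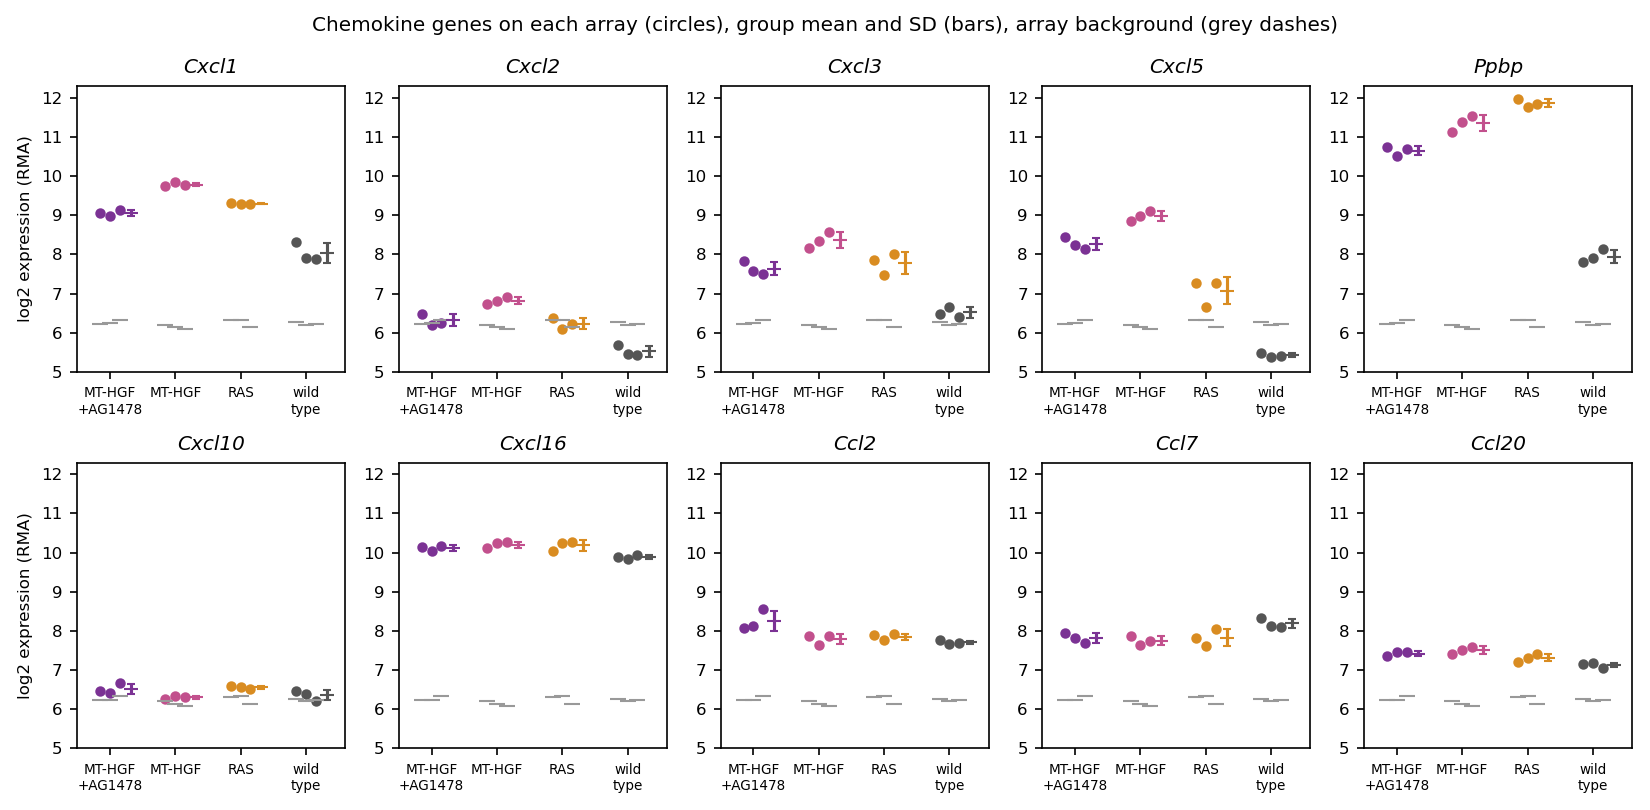
Log2 expression (vertical axis) of the 10 chemokine genes on each of the 12 arrays (circles), with the mean and SD of each group of 3 (bars) and each array's background (grey dashes); groups run from AG1478-treated MT-HGF cells to wild-type cells. In the upper row all wild-type arrays lie below those of the other groups, while in the lower row no gene has group means more than 0.54 log2 units apart.

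Cxcl16 and Cxcl10, the other CXC members, spanned 0.31 and 0.25 log2 units between their group means. Cxcl16 read 10.13, 10.03 and 10.18 in AG1478-treated MT-HGF cells, 10.11, 10.24 and 10.26 in MT-HGF cells, 10.03, 10.24 and 10.27 in RAS cells, and 9.88, 9.85 and 9.94 in wild-type cells. All 9 arrays outside wild type lay above the 3 wild-type arrays. Its rises over wild type were 0.29 ± 0.075 log2 units in RAS cells (adjusted p = 0.0064), 0.31 ± 0.075 in MT-HGF cells (adjusted p = 0.00278) and 0.22 ± 0.075 in AG1478-treated MT-HGF cells (adjusted p = 0.0235). The last was lost without wild-type replicate 2 or AG1478-treated replicate 1 or 3, at adjusted p of 0.0836, 0.0659 and 0.0753, and with arrays centred on their median (0.19 log2 units, adjusted p = 0.0729). The sheddase genes Adam10 and Adam17, whose proteases release CXCL16 from the membrane, were both higher in MT-HGF cells than in wild-type cells (0.46 ± 0.067 and 0.61 ± 0.082 log2 units) and in AG1478-treated MT-HGF cells than in wild-type cells (0.70 and 0.61). In RAS cells neither was called against wild type (0.14 and 0.17, adjusted p = 0.139 and 0.127).

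Cxcl10 read 6.47, 6.41 and 6.66 in AG1478-treated MT-HGF cells, 6.27, 6.33 and 6.32 in MT-HGF cells, 6.60, 6.56 and 6.52 in RAS cells, and 6.47, 6.38 and 6.21 in wild-type cells. These values lie close to background, and 0 of the 12 exceeded the 99th percentile of the silent class. The 1 call of 6 comparisons was a lower value in MT-HGF than in RAS cells (-0.25 ± 0.078 log2 units, adjusted p = 0.0244). It was lost without RAS replicate 1 or 2 or without MT-HGF replicate 1 or 2, at adjusted p between 0.0566 and 0.0776. The difference of RAS from wild-type cells was not called (0.21 ± 0.078, adjusted p = 0.052) but became so with array weights, a further quantile normalization or without wild-type replicate 1, at adjusted p of 0.000261, 0.035 and 0.0211. That of AG1478-treated MT-HGF from wild-type cells (0.16 ± 0.078, adjusted p = 0.114) was called with array weights and without wild-type replicate 1, at adjusted p of 0.00196 and 0.0443. Cxcl9, the neighbouring gene of another CXCR3 ligand, had group means of 6.20 to 6.21 and was not called in any of the 6 comparisons. Of 20 interferon response genes tested, 2 were higher and 9 lower in RAS cells than in wild type, 3 and 8 in MT-HGF cells, and 5 and 5 in AG1478-treated MT-HGF cells. Tap1, the peptide transporter gene of antigen presentation, was lower by 0.72 ± 0.091 log2 units in RAS cells, and Irf9, part of the factor that transmits type I interferon signals, was lower by 0.57 ± 0.088.

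Among the CC chemokine genes, Ccl2 was highest after AG1478. It read 8.08, 8.12 and 8.55 in AG1478-treated MT-HGF cells, 7.88, 7.63 and 7.87 in MT-HGF cells, 7.88, 7.76 and 7.91 in RAS cells, and 7.76, 7.67 and 7.69 in wild-type cells. All 3 AG1478-treated arrays lay above the other 9, and replicate 3 stood above the other two. Ccl2 was 1.37-fold higher than in MT-HGF cells (0.46 ± 0.10 log2 units, adjusted p = 0.00595), 1.32-fold higher than in RAS cells (0.40 ± 0.10, adjusted p = 0.00643) and 1.46-fold higher than in wild-type cells (0.54 ± 0.10, adjusted p = 0.000464). Ccl2 was not called in MT-HGF or RAS cells against wild type (0.09 and 0.14 log2 units, adjusted p = 0.595 and 0.353). Without AG1478-treated replicate 3 the difference from MT-HGF cells was 0.31 log2 units (adjusted p = 0.0201), and the calls against RAS and wild-type cells also held (adjusted p = 0.0284 and 0.00115).

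Ccl7 was the only member called lower than wild type in any of the 3 comparisons with it, and it was lower in each. It read 7.95, 7.82 and 7.70 in AG1478-treated MT-HGF cells, 7.88, 7.64 and 7.74 in MT-HGF cells, 7.82, 7.61 and 8.05 in RAS cells, and 8.33, 8.13 and 8.10 in wild-type cells. No group overlapped wild type, though the gap to RAS replicate 3 was small. The differences were -0.36 ± 0.10 log2 units in RAS cells (adjusted p = 0.0134), -0.44 ± 0.10 in MT-HGF cells (adjusted p = 0.00281) and -0.37 ± 0.10 in AG1478-treated MT-HGF cells (adjusted p = 0.00925). The call in RAS cells was lost without wild-type replicate 1 (adjusted p = 0.0601) or RAS replicate 2 (adjusted p = 0.0913). Against wild type, Ccl7 thus differed in direction from Ccl2, its neighbour on the chromosome, in the AG1478-treated cells. Against untreated MT-HGF cells, Ccl7 was not called after AG1478 (0.07 ± 0.10 log2 units, adjusted p = 0.690).

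Ccl2 and Ccl7 are also made by fibroblasts. The mean log2 level of 10 fibroblast marker genes lay between 8.82 and 8.88 on AG1478-treated MT-HGF arrays, 8.77 and 8.85 on MT-HGF arrays, 8.42 and 8.45 on RAS arrays, and 8.90 and 8.97 on wild-type arrays. In RAS cells 0 of the 10 were higher and 5 lower than in wild type, with Col1a1, a fibrillar collagen gene, at -1.37 ± 0.079 log2 units. In MT-HGF cells 4 were higher and 6 lower, and after AG1478 1 was higher and 1 lower than in MT-HGF cells. The part of these markers in the values of Ccl2 and Ccl7 was not tested.

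Ccl20 differed by less than 1 log2 unit throughout. It read 7.35, 7.45 and 7.46 in AG1478-treated MT-HGF cells, 7.41, 7.52 and 7.60 in MT-HGF cells, 7.22, 7.32 and 7.40 in RAS cells, and 7.15, 7.17 and 7.06 in wild-type cells. The wild-type arrays were the lowest 3 of the 12. Ccl20 was 1.30-fold higher in MT-HGF cells (0.38 ± 0.071 log2 units, adjusted p = 0.000313) and 1.23-fold higher in AG1478-treated MT-HGF cells (0.30 ± 0.071, adjusted p = 0.00276) than in wild-type cells. The difference in RAS cells was not called (0.19 ± 0.071, adjusted p = 0.0563), and that of MT-HGF over RAS cells was called narrowly (0.20 ± 0.071, adjusted p = 0.0491). Both turned under other settings. The first was called without RAS replicate 1 (adjusted p = 0.0344) and with the stricter filter, quantile normalization, array weights or the replicate block (adjusted p from 0.00204 to 0.0465). The second was lost without RAS replicate 1 or 2 or MT-HGF replicate 2 or 3 (adjusted p from 0.105 to 0.185) and with quantile normalization, centring, only the 2 groups fitted or the intensity trend (adjusted p from 0.0563 to 0.0731).

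The genes that flank the neutrophil chemokines in the cluster were examined after the members' values were seen, with gene order from RefSeq. In that order Cxcl5, Ppbp, Pf4, Cxcl3, Cxcl1 and Cxcl2 are followed by Mthfd2l, a mitochondrial folate enzyme gene, and by Epgn, Ereg and Btc, which encode EGFR ligands. Areg, which lies among them, was not analysed here. Ereg, the epiregulin gene, read 8.55, 8.25 and 7.95 in AG1478-treated MT-HGF cells, 9.84, 9.96 and 9.92 in MT-HGF cells, 9.39, 9.44 and 9.56 in RAS cells, and 8.25, 8.27 and 8.06 in wild-type cells. It was 1.71 ± 0.11 log2 units higher in MT-HGF cells and 1.27 ± 0.11 higher in RAS cells than in wild type (adjusted p = 2.19e-09 and 1.42e-07). After AG1478 it was lower by 1.66 ± 0.11 log2 units than in MT-HGF cells (adjusted p = 3.6e-08), and against wild type it was not called (0.05 ± 0.11, adjusted p = 0.738).

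Btc, the betacellulin gene, was likewise higher in MT-HGF cells (1.17 ± 0.065 log2 units, adjusted p = 2.6e-10) and in RAS cells (1.31 ± 0.065, adjusted p = 7.22e-11) than in wild type. After AG1478 Btc fell by 1.04 ± 0.065 and was not called against wild type (0.13, adjusted p = 0.121). Mthfd2l rose by 0.60 ± 0.074 log2 units in MT-HGF cells, fell by 0.55 ± 0.074 after AG1478 and was not called against wild type then (0.04, adjusted p = 0.669). Epgn fell by 0.71 ± 0.063 after AG1478 to below wild type (-0.45 ± 0.063, adjusted p = 1.82e-05). Rassf6, the gene before Cxcl5, was called above wild type in the treated cells (0.25 ± 0.060, adjusted p = 0.00239). Its values there and in wild-type cells were not above background. The 5 neutrophil chemokine genes were all still called above wild type in the treated cells, by 0.79 to 2.85 log2 units before bounds. The difference between the chemokine genes and these neighbours in the size of the AG1478 effect was not tested.

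**Figure D4:**
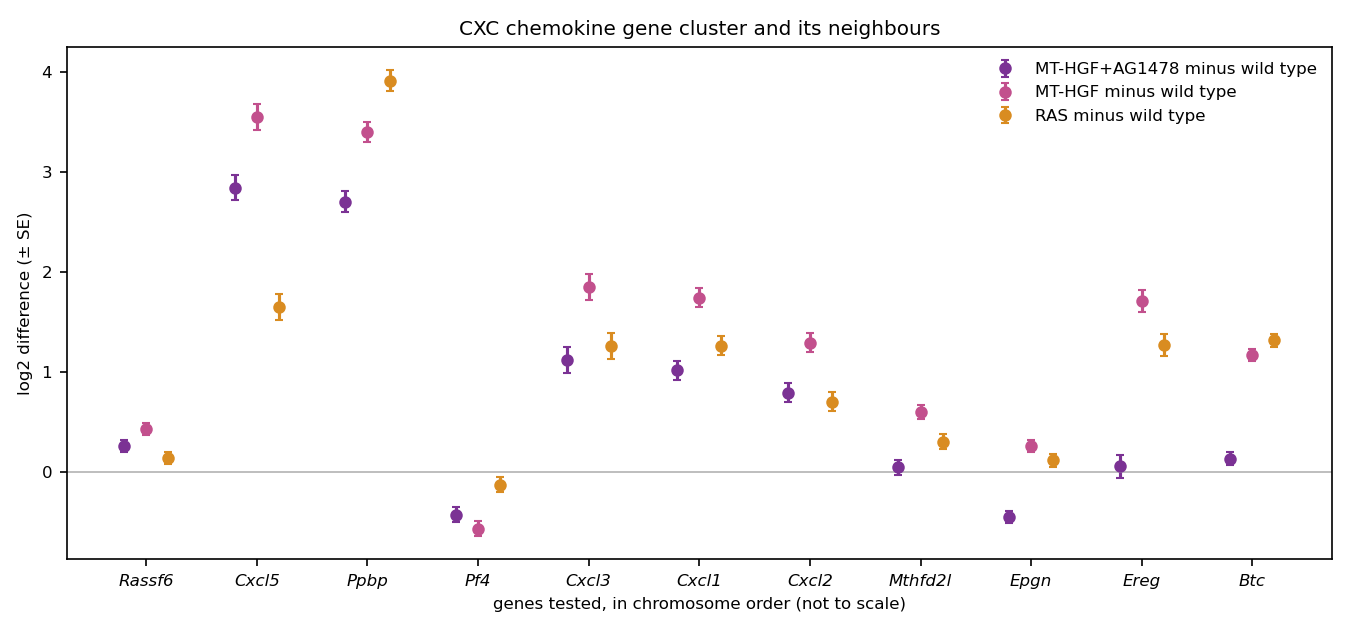
Log2 difference from wild type (vertical axis, ± SE, 3 arrays per group) of genes of the CXC chemokine cluster and its neighbours in chromosome order (horizontal axis, not to scale), for AG1478-treated MT-HGF, MT-HGF and RAS cells. After AG1478 Cxcl1, Cxcl2, Cxcl3, Cxcl5 and Ppbp stay between 0.79 and 2.85 while Mthfd2l, Ereg and Btc lie at 0.04 to 0.13. Rassf6 lies at 0.25, Pf4 at -0.43 and Epgn at -0.45. Cxcl5, Cxcl2, Pf4 and Rassf6 include values below background.

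The genes whose pattern over the 12 arrays was most like each neutrophil chemokine were ranked by the root mean square difference of centred log2 values, as a description. For Cxcl1 these were Stc1 (0.12 log2 units), which encodes the secreted glycoprotein stanniocalcin 1, and Wnt7a (0.13), which encodes a Wnt ligand. For Cxcl2 they were the microRNA gene Mir31 and Susd1 (both 0.12). For Cxcl3 they were Map3k5 (0.13), the gene of the stress kinase ASK1, and Pla2g4f (0.15), a phospholipase gene. Cxcl5 was matched by the amino acid transporter gene Slc6a14 (0.24) and by Wfdc2 (0.26), and Ppbp by Acp7 (0.17) and the retinol dehydrogenase gene Dhrs9 (0.21). Within the members, Cxcl1 differed from Cxcl3 by 0.21 and from Cxcl2 by 0.24, but from Cxcl5 by 0.85 and from Ppbp by 0.97. The other 5 members spanned 0.25 to 0.54 log2 units between group means, under the 1 log2 unit set for this ranking.

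Of 23 other chemokine ligand genes tested, 0 were higher and 4 lower in RAS cells than in wild-type cells, and the same counts were found in MT-HGF cells. At an unadjusted p under 0.05 in limma's fit, 0 were higher in RAS cells and 1 in MT-HGF cells. The median differences were 0.00 and -0.02 log2 units, against 0.49 and 0.84 for the 10 members. These medians are not a fair contrast, since the members were chosen with earlier results of these data known. Several of the 23, Cxcl12, Cxcl13, Ccl1, Ccl24 and Ccl26, were also not above background on any array. Cxcl14, a chemokine gene expressed in resting epidermis, was lower by 0.34 ± 0.087 log2 units in RAS cells (adjusted p = 0.00654) and not called in MT-HGF cells (0.06, adjusted p = 0.692). Ccl25 fell by 0.20 in RAS cells and by 0.36 in MT-HGF cells. After AG1478 0 of the 23 were called against MT-HGF cells in either direction, and 4 were higher at an unadjusted p under 0.05. The treated cells had 1 higher than wild type, Ccl5, a T cell attractant gene (0.35 ± 0.075 log2 units), and 5 lower.

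Of 13 chemokine receptor genes tested, RAS cells had 3 called higher and 0 called lower than wild-type cells, and MT-HGF cells had 3 and 3. Cxcr2, the receptor gene of the 5 neutrophil chemokines, was at least 1.34-fold higher in MT-HGF cells (adjusted p = 3.11e-08) and at least 1.06-fold higher in RAS cells (adjusted p = 1.55e-06, with 1 of 3 RAS arrays above background), because wild-type cells lay below background. After AG1478 it was at least 1.30-fold lower than in MT-HGF cells (adjusted p = 0.00429), on arrays none of which lay above background. Ackr3, an atypical receptor that takes up CXCL12, was 1.03 ± 0.073 log2 units higher in RAS cells and 0.68 ± 0.073 higher in MT-HGF cells than in wild type, and fell by 0.29 ± 0.073 after AG1478. Ccr1, a receptor gene for several CC chemokines, read 6.94, 6.79 and 7.49 in RAS cells, against 5.18, 5.15 and 5.08 in wild-type cells, at least 1.80-fold higher (adjusted p = 2.35e-08). Ccr4 read 6.86, 6.88 and 6.96 after AG1478 and lay below background on the other 9 arrays, so that it was at least 1.69-fold higher than in MT-HGF cells (adjusted p = 1.63e-08). Leukocytes also carry these receptors. Among the leukocyte markers tested, Ptprc and Itgam lay below background throughout, while Cd68, Cd3e, Csf1r, S100a4 and Tyrobp lay above it on every array. Lyz2, Elane and Fcgr3 lay above it on some arrays. The part of leukocytes in the receptor values was not tested. The mean log2 level of 14 leukocyte markers lay between 6.35 and 6.49 on AG1478-treated MT-HGF arrays, 6.32 and 6.41 on MT-HGF arrays, 6.38 and 6.48 on RAS arrays, and 6.56 and 6.66 on wild-type arrays.

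Of 17 tested genes on a list of cytokines linked to chemokine induction, 9 were higher and 3 lower in RAS cells than in wild type. The counts were 9 and 2 in MT-HGF cells, and 10 and 2 in AG1478-treated MT-HGF cells. The list also counts Il1rn, which encodes the interleukin 1 receptor antagonist, a blocker of interleukin 1. Il1rn averaged 9.19 in AG1478-treated MT-HGF cells, 9.31 in MT-HGF cells, 8.98 in RAS cells and 8.17 in wild-type cells. Il1a, the interleukin 1 alpha gene, read 11.20, 11.21 and 11.42 in AG1478-treated MT-HGF cells, 12.01, 12.13 and 12.07 in MT-HGF cells, 11.62, 11.42 and 11.68 in RAS cells, and 9.38, 9.35 and 9.49 in wild-type cells. It was 2.66 ± 0.082 log2 units above wild type in MT-HGF cells, and after AG1478 it was lower by 0.79 ± 0.082 (adjusted p = 3.92e-06) and still 1.87 ± 0.082 above wild type. Il1f6 and Il1f8, genes of the IL36 cytokines, rose by 3.76 and 3.20 log2 units in MT-HGF cells and by 2.61 and 3.01 in RAS cells. After AG1478 2 of the 17 were higher and 4 lower than in MT-HGF cells. Il18, an interleukin 1 family cytokine gene, rose most, by 1.94 ± 0.12 log2 units, while Tslp and Il33, which encode cytokines of type 2 immunity, fell by 0.88 and 0.54.

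Of 18 feedback targets of NF-kappaB tested, 6 were higher and 3 lower in RAS cells than in wild type, 8 and 3 in MT-HGF cells, and 11 and 2 in AG1478-treated MT-HGF cells. Tnfaip2, a gene induced by tumour necrosis factor, read 9.36, 9.22 and 9.23 in AG1478-treated MT-HGF cells, 10.29, 10.26 and 10.16 in MT-HGF cells, 9.21, 8.97 and 9.35 in RAS cells, and 7.35, 7.08 and 7.08 in wild-type cells. It fell by 0.97 ± 0.095 log2 units after AG1478 (adjusted p = 2.07e-06), the only 1 of the 18 called lower in that comparison, where 5 were higher. Those that rose included Icam1, an adhesion molecule gene (0.58), the NF-kappaB subunit gene Rel (0.56) and Birc3, an inhibitor of apoptosis gene (0.50). Nfkbia, the gene of the inhibitor IkappaB alpha, was 0.93 ± 0.066 log2 units higher in MT-HGF cells and 0.76 higher in AG1478-treated MT-HGF cells than in wild type.

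Of 20 ERK response genes tested, 15 were higher and 2 lower in RAS cells than in wild type, and 15 and 3 in MT-HGF cells. After AG1478 2 were higher and 13 lower than in MT-HGF cells, and against wild type 7 were higher and 6 lower. Dusp6, an ERK phosphatase gene and a readout of ERK activity, was lower by 1.14 ± 0.096 log2 units after AG1478 (adjusted p = 3.67e-07) and then stood below wild type (-0.28 ± 0.096, adjusted p = 0.0253). Dusp4, Fos and Etv5 fell by 1.15, 1.04 and 1.02 log2 units. Jun and Egr3 went the other way, with means of 9.90 and 9.55 in MT-HGF cells and 10.28 and 9.96 after AG1478. Spry4, also an ERK check gene, averaged 7.46 after AG1478, 7.71 in MT-HGF cells, 8.51 in RAS cells and 8.18 in wild-type cells. The median of the 20 after AG1478 was -0.59 log2 units and that of the 5 neutrophil chemokine genes was -0.71, against 0.02 over all genes.

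Genes whose proteins act on chemokine mRNA stability were also counted. Of 8 tested, 2 were higher and 2 lower in RAS cells than in wild type, 3 and 2 in MT-HGF cells, and 3 and 4 in AG1478-treated MT-HGF cells. Zfp36, whose product tristetraprolin speeds the decay of AU-rich mRNAs, was 1.04 ± 0.10 log2 units higher in RAS cells and 0.68 ± 0.10 higher in MT-HGF cells. Zfp36l1, a gene of the same family, went the other way. It averaged 9.38 in RAS cells and 9.47 in MT-HGF cells, against 10.03 in wild-type cells. Zc3h12a, the gene of the RNase regnase-1, was 0.69 ± 0.077 log2 units higher in MT-HGF cells than in wild-type cells. It rose by a further 0.34 ± 0.077 after AG1478 (adjusted p = 0.00514).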

How the data were processed

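Total RNA of 12 keratinocyte samples was measured on Affymetrix Mouse Gene 1.0 ST arrays, per the labels. The deposited log2 values were made by the authors with RMA, per the submitters' processing notes, with its version not given in the sources used here, and no scanner files were used. Groups came from the sample titles and sources, which give 4 conditions where the design text gives 3. Of 35511 clusters, 21789 had a single gene symbol in the platform's annotation, 1621 had several and 12101 were not listed; 21698 had a current record under the same Entrez ID, with 0 symbols changed. The filter (30th percentile, 3 or more arrays) left 25860 clusters, and a gene was represented by its cluster with the highest mean. A group-means model over all 12 arrays was fitted with limma 3.58.1 in R 4.3.3 (8 residual and 8.02 prior degrees of freedom), with two-sided p-values adjusted by Benjamini-Hochberg over 15868 genes in each of 6 comparisons. The fit was checked on simulated data.

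The background was taken over all 1228 chemosensory receptor clusters, since the 156 that passed the filter are the brighter ones. For a gene whose lower group had 0 of 3 arrays above it, the bound compares the higher group's mean with the mean of, per array, the higher of background and signal. The number of arrays limits the precision.

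The members, gene lists and tests were chosen with earlier results of these data known. From each list, genes with the largest called differences were eligible to be named, up to 4 per comparison, besides the members and the check genes Hgf, Dusp6, Spry4, Ptprc, Pecam1, Col1a1, Dct, Krt14 and Krt5; cluster neighbours, promoter motifs and genes named as not called were chosen after values were seen. Alternatives were no filter, a stricter filter, the mean of a gene's clusters, a further quantile normalization, centring on the array median, fits of only the groups compared, array weights, an intensity trend with robust moderation, the replicate number as a block, another background percentile and leaving out each array.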

Additional observations from a re-analysis of the deposited data

How the results depend on the processing

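The calls of Cxcl1, Cxcl2, Cxcl3, Cxcl5 and Ppbp against wild type and after AG1478 kept their direction and their side of the threshold under the alternatives run, except that Cxcl2 and Cxcl10 have no value under the stricter filter. Over all member differences, 844 values were on the same side as reported, 18 lost and 15 gained a call, and 11 changed sign, all of them differences not called as reported. Members called lower in MT-HGF than in RAS cells numbered 1 under the stricter filter, which left out Cxcl10. In AG1478-treated MT-HGF against RAS cells 2 were lower under the stricter filter, centring on the array median, fits of only the 2 groups compared and array weights, since Cxcl1 joined Ppbp. Leaving out 1 array at a time gave 0 to 1 members lower in RAS cells than in wild type (Ccl7) and 1 to 2 lower in MT-HGF than in RAS cells (Cxcl10).

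Signs turned with array weights for Cxcl10 in MT-HGF cells against wild type (0.054 log2 units) and for Cxcl3 (0.12) and Ccl7 (0.18) in AG1478-treated MT-HGF against RAS cells, and the cause was not tested. Leaving out 1 array at a time, differences ranged from -0.11 to 0.011 for Cxcl10 in MT-HGF cells against wild type. Between MT-HGF and RAS cells they ranged from -0.052 to 0.068 for Cxcl16, from -0.10 to 0.022 for Ccl2 and from -0.18 to 0.037 for Ccl7. Between AG1478-treated MT-HGF and RAS cells they ranged from -0.12 to 0.0046 for Cxcl10 and from -0.11 to 0.11 for Ccl7. Over all genes, array weights called 3100 higher and 4996 lower in RAS cells against 2004 and 3154 as reported, 1795 higher after AG1478 against 1043, and 4367 higher in AG1478-treated cells than in wild type against 2663; without MT-HGF replicate 2 the count higher after AG1478 was 683.

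In none of the 6 comparisons did every same-numbered pair correlate above 0.1 in its deviations from the group means, so the numbers were not taken to pair samples. The 3 correlations were 0.47, 0.087 and 0.50 for MT-HGF and RAS, where every MT-HGF array correlated best with the RAS array of its number, a hint from the data and not the design. They were 0.53, 0.046 and 0.35 for MT-HGF and wild type and 0.40, -0.24 and 0.27 for RAS and wild type. With the replicate block, 7 members were higher in RAS cells than in wild type, because Ccl20 was called (0.19 log2 units, adjusted p = 0.0465), and no other member's call changed. Signal over background limits Cxcl2 and Cxcl10 most, and with the 99th percentile as background the bounds of Cxcl2 were 0.014 log2 units in MT-HGF cells against wild type, 0.0082 against RAS cells and -0.0024 in AG1478-treated against untreated MT-HGF cells.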

Other observations

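Markers of other cell types that a keratinocyte culture can hold were also read. The melanocyte gene Dct, an enzyme of pigment synthesis, was well above background in all groups, and of 7 melanocyte markers 0 were higher and 5 lower in MT-HGF cells than in wild-type cells, with Mlana at -0.79 log2 units. In RAS cells 0 of the 7 were called against wild type in either direction, by limma's adjusted p and at an unadjusted p under 0.05. Of 10 leukocyte markers tested, 1 was higher and 4 lower in RAS cells than in wild type, and likewise in MT-HGF cells. Cd68, a lysosomal protein gene, was the higher one, by 1.29 ± 0.11 and 1.28 ± 0.11 log2 units, and S100a4 was lower by 0.98 and 1.30. Lyz2, another leukocyte marker, read 8.27, 7.32 and 7.47 in wild-type cells and was not above background on any array of the other groups. The 5 endothelial markers tested had 1 higher and 1 lower in RAS cells than in wild type, and likewise in MT-HGF cells. Pecam1, the higher one, had group means of 6.09 to 6.42, close to background. It was called higher in RAS cells (adjusted p = 0.00879) and MT-HGF cells (adjusted p = 0.000985) than in wild-type cells. The part of these markers in the chemokine values was not tested.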
